A study of Mus musculus with 816 samples.

Results

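The 50 genes described here serve proliferation and the cell cycle, and were followed through cultured mouse microglia and through microglia sorted from mouse brain. They are a list of gene names with no threshold on a value, drawn up with earlier results of these data known, and all 50 were found among the 45581 genes of the culture table and among the 29858 genes of the mouse table. Microglia are the resident macrophages of the brain. The cultures were primary neonatal mouse microglia, bought as isolated cells and grown on poly-lysine in 96-well plates, and each well was left untreated or given a stimulus 4 days after plating and collected 4, 24 or 72 h later. There were 784 cultures in 98 groups of stimulus and time, of which 40 were untreated wells at 24 h and 25 untreated wells at 72 h, on 10 plates and from 3 cell lots. The 32 mice were C57BL/6 animals whose CD11b-positive brain cells were taken by magnetic sorting, a step that also retains other myeloid cells. In the first mouse experiment 4 female mice of 2 months received 2 mg/kg lipopolysaccharide (LPS) by intraperitoneal injection and were compared after 4 h with 4 given PBS, and 11 male mice of 2 months were compared with 13 of 22 months. These 24 are labelled naive, but the columns of the 8 in the first of 2 library series, 4 of each age, are headed Vehicle, as are those of the LPS experiment. The group sizes are those of the labels, whereas the study's methods give a single size for both ages.

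Cells enter division by a relay. Cyclin E and the transcription factor E2F1 start the programme, the minichromosome maintenance (MCM) helicase is loaded on DNA, nucleotides and DNA are made, and cyclin B with CDK1 then drives mitosis, in which kinetochores, the spindle and the anaphase-promoting complex separate the chromosomes. Most of these genes are transcribed mainly in cycling cells, so their RNA is a common readout of proliferation, and microglia, which are rarely in cycle in the adult brain, divide readily when neonatal or in culture with colony-stimulating factors. The list was read here by role: 6 MCM helicase genes (licensing), 6 DNA synthesis genes, 3 regulators of the passage from G1 to S, 9 mitotic kinases and cyclins, 12 chromosome and kinetochore genes, 11 spindle and cytokinesis genes and 3 genes of protein degradation in mitosis. In such bulk samples, fewer cycling cells and less RNA per cycling cell cannot be told apart.

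Promoter sequences are shown because most of the 50 genes moved together in what follows, and to set out the letters near the starts of early and late genes. RefSeq windows on GRCm38.p6, from 250 bases before to 50 bases after the start, were available for 42 of the 50 genes and for 27025 genes in all. Searches on both strands covered the cell cycle homology region (CHR, TTTGAA), the CCAAT box (CCAAT) and the E2F element (TTTCCCGC, TTTCGCGC, TTTGCCGC or TTTGGCGC), whose matches on opposite strands may overlap. A gene was counted when any of its windows held the letters. A CHR was found in 75.9% of the 29 mitotic, kinetochore, spindle and degradation genes with a window, in 7.69% of the 13 licensing, DNA synthesis and G1 to S genes, and in 20.2% of all genes. The E2F letters were found in 38.5% of the 13 early genes, in 3.45% of the 29 later genes and in 2.6% of all. A CCAAT box stood in 78.6% of the 42 genes against 41.1% of all, and CHR and CCAAT together in 52.4% against 8.97%. A match is a run of letters, not a shown binding site. The 150 bases before the start follow for 4 later genes, 2 licensing genes and Melk, a mitotic kinase gene that departed from the rest below, each 5′ to 3′ on the gene's strand with matched letters in capitals.
Mki67, chr7:135716380-135716529, minus strand: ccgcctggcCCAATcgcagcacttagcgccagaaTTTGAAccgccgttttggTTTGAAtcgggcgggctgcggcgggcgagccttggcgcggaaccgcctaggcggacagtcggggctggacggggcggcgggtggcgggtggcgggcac
Top2a, chr11:99024190-99024339, minus strand: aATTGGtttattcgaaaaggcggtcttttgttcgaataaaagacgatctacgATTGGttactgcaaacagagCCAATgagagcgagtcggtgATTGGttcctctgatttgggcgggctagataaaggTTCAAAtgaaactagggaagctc
Cdk1, chr10:69352913-69353062, minus strand: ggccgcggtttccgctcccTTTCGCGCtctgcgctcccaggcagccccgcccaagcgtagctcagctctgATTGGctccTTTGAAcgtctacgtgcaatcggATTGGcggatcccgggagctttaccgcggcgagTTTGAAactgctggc
Cdc20, chr4:118437344-118437493, minus strand: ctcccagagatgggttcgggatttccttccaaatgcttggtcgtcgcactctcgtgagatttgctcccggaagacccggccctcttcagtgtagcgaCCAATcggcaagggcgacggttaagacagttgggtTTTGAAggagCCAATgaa
Mcm5, chr8:75109359-75109508, plus strand: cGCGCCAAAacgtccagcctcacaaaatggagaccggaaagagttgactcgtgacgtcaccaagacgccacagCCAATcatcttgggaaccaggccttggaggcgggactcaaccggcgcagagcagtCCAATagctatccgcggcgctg
Mcm6, chr1:128359706-128359855, minus strand: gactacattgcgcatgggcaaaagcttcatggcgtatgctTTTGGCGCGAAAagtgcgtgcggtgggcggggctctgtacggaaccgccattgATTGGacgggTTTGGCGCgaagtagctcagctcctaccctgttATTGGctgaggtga
Melk, chr4:44300767-44300916, plus strand: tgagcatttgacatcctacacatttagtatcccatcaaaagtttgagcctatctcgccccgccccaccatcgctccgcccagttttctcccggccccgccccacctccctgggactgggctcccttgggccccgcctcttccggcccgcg
The first 4 stretches hold TTTGAA or its complement, and that of Cdk1 also holds E2F letters. Those of Mcm5 and Mcm6 hold E2F letters and no TTTGAA. These stretches are picked examples, and other windows differed. That of the later gene Ccnb1 held no CHR, those of Rrm2 and Pcna no E2F letters, and that of the licensing gene Mcm2 a CHR and no E2F letters. The stretch of Melk holds none of the 3 elements. The windows of Tk1, Nusap1, Nuf2, Birc5, Ccne1, Tyms and E2f1 held none either. Below, Melk and E2f1 were lower in 4 of 44 conditions at 24 h, but Tk1 in 24, Nusap1 in 21, Nuf2 in 19 and Birc5 in 18. Ccne1 was lower in 14 and Tyms in 8.

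Each culture was sequenced from the 3′ ends of its transcripts. Depth was estimated by taking the most frequent low value of a library as 1 read. Estimated depth ran from 1 to 38.2 mega-reads (M reads, median 4.67) in the cultures and from 2.36 to 7.78 M reads (median 4.08) in the mice. The study's methods give a higher median depth. Values are counts-per-million of mapped reads (CPM), and folds are differences of log2(CPM + 1), which understate the change of low genes. A gene was called at an adjusted p under 0.05 by limma, over all genes of the fit. Microglial marker genes summed to a median of 1780 CPM in untreated middle wells at 24 h and 1470 in edge wells. The 6 astrocyte markers summed to medians of 6 and 5.67, and Gfap, Aqp4, Slc1a2 and Gja1 among them had a median of 0. Oligodendrocyte lineage markers summed to medians of 58.9 and 55.1, endothelial markers to 63.4 and 53.6, and fibroblast and mural markers to 60 and 22.7. In the mice the same microglial list summed to medians of 33600 to 41300 CPM, astrocyte markers to 471 to 893 and oligodendrocyte lineage markers to 386 to 850. The part of other cell types in the results was not tested.

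The cell cycle genes were well expressed in untreated cultures, and their level depended on where the well lay on the plate. In the 30 untreated middle wells at 24 h, Top2a, which encodes the DNA topoisomerase that untangles chromosomes, ran from 212 to 822 CPM with a median of 404, whereas in the 10 edge wells it ran from 7.31 to 247 with a median of 100.03. Mki67, which encodes the proliferation marker Ki-67, ran from 10.8 to 99.3 (median 22.3) in the middle and from 0 to 29 (median 7.51) at the edge. Mcm5, a subunit of the helicase, ran from 32.6 to 102.5 (median 68.8) in the middle and from 7.11 to 37.5 (median 24.4) at the edge. Edge wells were thus the lower ones for these genes, with some overlap. Ccnb1, cyclin B1, had medians of 36 and 12, Rrm2, a subunit of ribonucleotide reductase, 31.8 and 13.6, and Stmn1, the microtubule regulator stathmin, 78.6 and 35.7. Cdk1, the mitotic kinase, overlapped more widely, from 17.5 to 171 CPM (median 91.5) in the middle and from 19.1 to 150 (median 46.3) at the edge. Pcna, the sliding clamp of DNA polymerase, had medians of 877 in the middle and 1073 at the edge with all plates pooled, but its edge mean lay below its middle mean on plates C (411 against 697), D (607 against 933) and H (666 against 979) and near it on plate A (1370 against 1374).

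With plate as a term, 32 of the 49 genes that passed the filter were lower in edge than in middle untreated wells and none was higher, while 0.726% of all 11986 genes tested were lower. The median difference of the 49 was -1.78 and that of all genes was 0.032. Estimated depth at 24 h overlapped between the positions, with medians of 5.43 M reads in the middle and 4.71 at the edge. The 4 largest were those of Ckap2 (-3.10), a spindle protein gene, Mki67 (-3.08, SE 0.38, adjusted p = 3.4e-08 by limma), Plk1 (-2.99), a mitotic kinase gene, and Ube2c (-2.89), the ubiquitin-conjugating enzyme gene of the anaphase-promoting complex. Top2a fell by 2.73 (SE 0.52, adjusted p = 4.7e-04), Ccnb1 by 2.40 (SE 0.33, adjusted p = 5.7e-07), Rrm2 by 2.27 (SE 0.40, adjusted p = 1.1e-04), Stmn1 by 2.17 (SE 0.49, adjusted p = 5.7e-03) and Mcm5 by 1.43 (SE 0.37, adjusted p = 0.028). Cdk1 (-1.31, adjusted p = 0.10) and Pcna (-0.40, adjusted p = 0.43) did not pass. By role, 10 of 11 spindle and cytokinesis genes, 8 of 12 chromosome and kinetochore genes, 6 of 9 mitotic kinases and cyclins, 2 of 3 degradation genes, 4 of 6 DNA synthesis genes, 2 of 6 licensing genes and 0 of 2 G1 to S regulators were lower. Of listed pathway genes outside the 50, 0 of 14 brakes (Cdk inhibitors and antiproliferative genes) and 0 of 10 G1 drivers (cyclins D, their kinases and Myc among them) were lower.

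Across all 784 cultures with condition and plate as terms, 48 of the 50 genes were lower at the edge, against 16.3% of 16942 genes. Top2a (-2.26), Ccnb2 (-2.25), the gene of cyclin B2, Ube2c (-2.11) and Tk1 (-2.01), thymidine kinase, moved most, and Pcna (-0.10) and Ccne2 (-0.02) were the 2 not called. All 19 listed S phase genes outside the 50 were lower. Of the brakes, Gadd45a (1.00), Cdkn2b (0.55) and Mdm2 (0.46) were among the 5 of 17 that were higher, and 5 were lower. Well position was therefore a term in the fits of conditions below, and is given in words for some of them only. Conditions were also compared with untreated wells of their own plate and position where there were any.

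**Figure D1:**
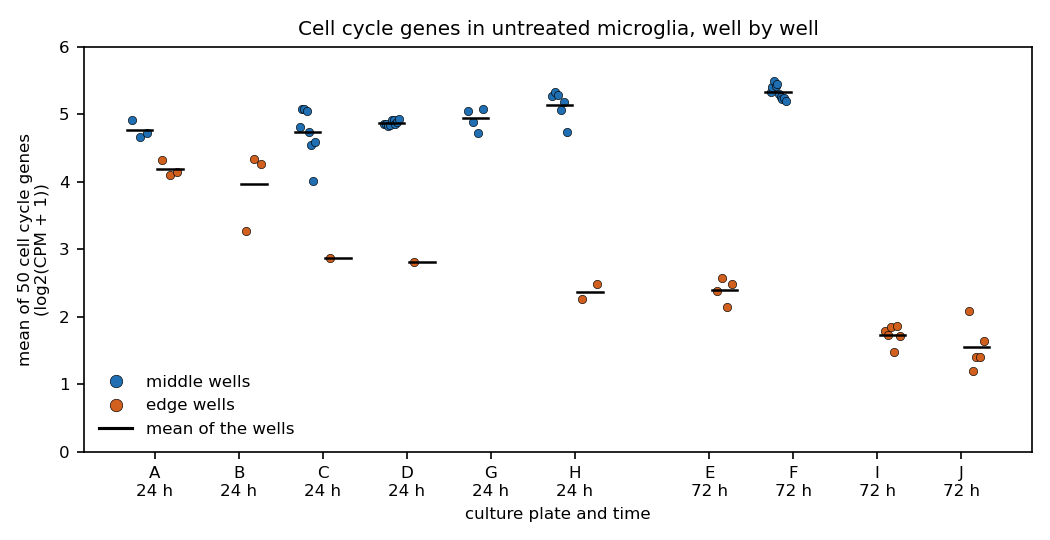
Mean log2(CPM + 1) of the 50 genes in each untreated well, by plate (letters) at 24 h and 72 h; blue points are middle wells, orange points edge wells, and the black line is the mean of a plate and position. Plate means lie at 4.74 to 5.15 for middle wells at 24 h and at 2.37 to 4.19 for edge wells, and at 72 h the middle wells of plate F lie at 5.33 and the edge wells of plates E, I and J at 2.40, 1.74 and 1.55.

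Longer culture was the second comparison within untreated wells. At 72 h the 10 middle wells were all on plate F and the 15 edge wells all on plates E, I and J, and the cell cycle genes were high in the first and low in the second. Top2a ran from 261 to 463 CPM (median 340) in the middle wells and from 0 to 71.7 (median 16.8) in the edge wells. Cdk1 ran from 108 to 227 (median 154) against 0 to 47.8 (median 20.4), and Mki67 from 12.6 to 48.5 (median 21.8) against 0 to 6.14 (median 0.803). For these 3 genes no edge well reached the lowest middle well. Pcna overlapped, with 990 to 1654 CPM (median 1270) in the middle and 650 to 1542 (median 1060) at the edge. Microglial markers summed to a median of 1870 CPM in the middle wells at 72 h and 1070 in the edge wells, where P2ry12, a receptor gene of microglia, had a median of 0, and macrophage lineage markers to 9970 and 5330. Between 8846 and 9242 genes were over 5 CPM in a middle well and between 7221 and 8593 in an edge well, without overlap. Their part in the result was not tested, and at 72 h plate and position of the untreated wells cannot be told apart.

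With 1 mean per plate, 6 of 49 genes were lower at 72 h than at 24 h and none was higher, against 2.81% of 11986 genes that were lower. These were Tk1 (-3.24), Top2a (-2.96, SE 0.73, adjusted p = 0.037 by limma), Mcm5 (-2.54, SE 0.66, adjusted p = 0.046), Mcm2 (-2.27), Ccne1 (-1.85), the gene of cyclin E1, and Kif20a (-1.31), a kinesin gene. Mki67 (-2.23, SE 0.60, adjusted p = 0.052), Rrm2 (-2.62, adjusted p = 0.052), Ccnb1 (-2.48, adjusted p = 0.082) and Cdk1 (-1.52, adjusted p = 0.13) did not pass, nor did Stmn1 (-0.40) and Pcna (0.28). Outside the list, the cyclin gene Ccnd2 (-4.08) and the myeloid factor gene Spi1 (-1.38) were lower. The count rested on the plates: it was 44 without plate F, 10 without plate H, 0 without any 1 of the other 8 plates, and 0 among middle wells alone, where the median difference of the genes turned to 0.49 from -1.65.

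After 24 h of stimulation the cell cycle genes were called lower in many conditions and called higher in few. Over the 44 conditions, 803 of the 2200 pairs of gene and condition were lower and 5 were higher than in untreated wells, against 7.14% and 3.08% of all genes and conditions together. In 21 conditions 10 or more of the 50 genes were called, and in 15 none was. The 44 comparisons share the same 40 untreated wells. Tk1 was lower in 24 conditions, Top2a and Stmn1 in 22 each, and at the other end Ccne2 in 1, Kif20a in 3, and E2f1 and Melk in 4 each.

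**Figure D2:**
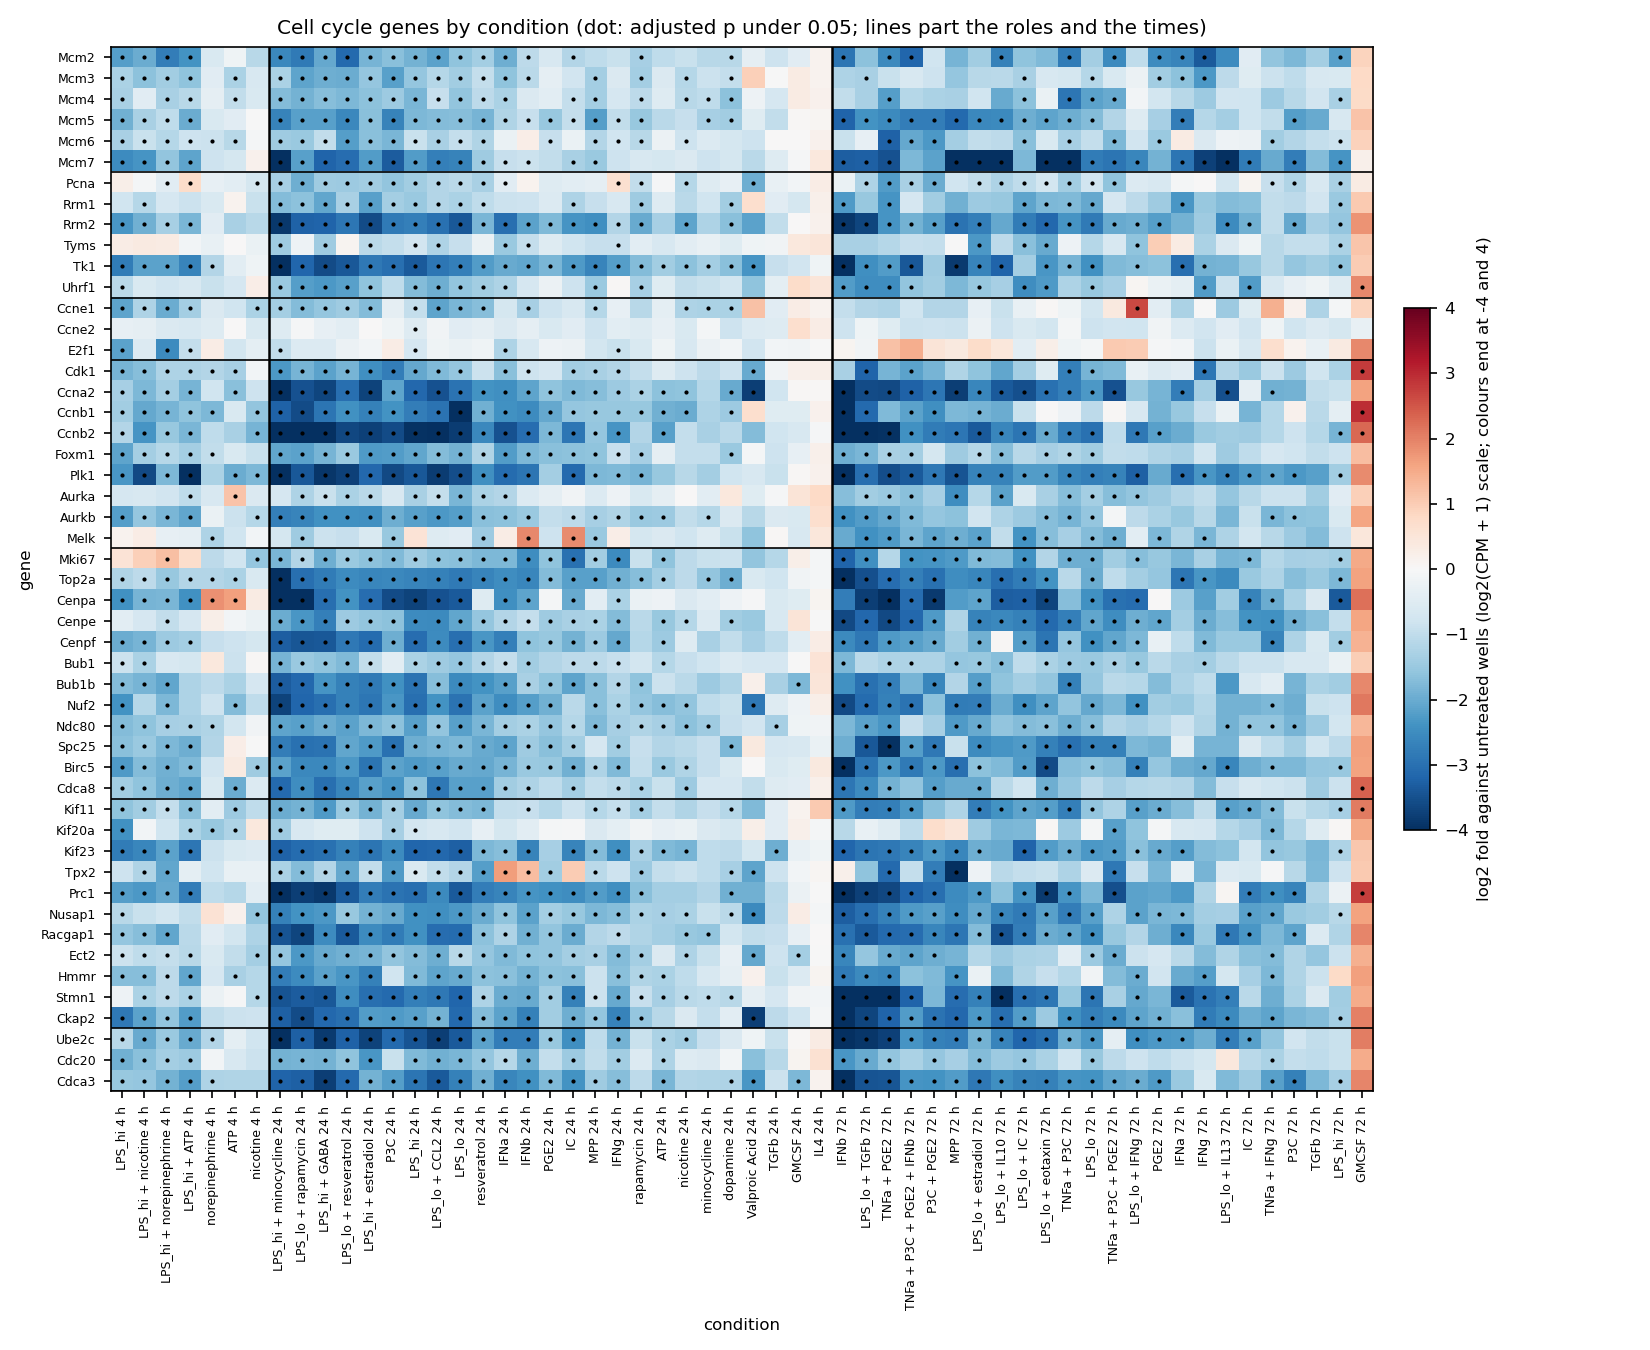
Log2 fold of each of the 50 genes (rows, by role) in the conditions described here (columns, by time) against untreated wells, blue lower and red higher, with colours ending at -4 and 4 and a dot where the adjusted p was under 0.05. Blue fills most rows under LPS, P3C and the interferons at 24 h, while IL4, GMCSF and TGFb at 24 h are nearly free of dots.

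LPS, the cell wall component of Gram-negative bacteria that Toll-like receptor 4 senses, lowered nearly the whole list. Under LPS_hi (0.0001 ug/ul, 18 wells, 12 of them in the middle) Top2a ran from 10.8 to 116 CPM with a median of 36.3, against 7.31 to 822 with a median of 344 in all 40 untreated wells. Stmn1 ran from 1.99 to 82.2 (median 7.38) against 8.92 to 666 (median 71.1), and Pcna from 135 to 700 (median 419) against 335 to 1499 (median 899). The groups overlapped at the low, edge end of the untreated wells. In the fit with plate and position, 49 of 50 genes were lower, the exception being Melk (0.55, not called), and 34.1% of all genes were lower too. The median of the 50 was -2.06 and that of all genes -0.245. The largest falls were those of Ccnb2 (-3.96), Cenpa (-3.71), which encodes the centromeric histone, Ube2c (-3.46) and Plk1 (-3.40).

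Of the genes given throughout, Top2a fell by 2.63 under LPS_hi (SE 0.25, adjusted p = 2.5e-22 by limma) and Pcna by 1.40 (SE 0.11, adjusted p = 3.0e-28). Ccnb1 fell by 2.76, Stmn1 by 2.75, Rrm2 by 2.72, Cdk1 by 2.05, Mcm5 by 1.8 and Mki67 by 1.43, with standard errors from 0.21 for Stmn1 to 0.30 for Rrm2 and adjusted p-values from 1.4e-30 for Stmn1 to 2.0e-06 for Mki67. Among the listed pathway genes, 17 of 19 other S phase genes were lower, Dut, the dUTPase gene, by 3.23. Of 10 G1 drivers, 6 were lower, Ccnd1 by 2.88, and 1, Ccnd3, was higher (0.89). Of 17 brakes, 6 were lower and 2 higher, Gadd45a among them (0.98). Csf1r, the receptor gene of the growth factor CSF1, fell by 1.84, and microglial markers as a list summed to a median of 471 CPM against 1780 in untreated middle wells.

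The LPS_hi effect was also fitted separately by position. In middle wells 47 of 49 genes were lower, against 33% of genes, and in edge wells 32 were lower, against 20.2%, and 1, Melk (1.84), was higher. The effect differed between positions for 3 genes, Ccnb2 (2.78 less of a fall at the edge, adjusted p = 0.044 by limma), Mki67 (2.77, adjusted p = 0.040) and Plk1 (2.60, adjusted p = 0.049), where 0.0341% of all genes differed in this direction. For Mki67 the fold was -2.40 in the middle and 0.38 at the edge.

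LPS at the lower dose and P3C lowered most of the list as well. LPS_lo (0.00001 ug/ul, 7 wells) lowered 45 of 50 genes (20.9% of all genes), with Ccnb1 (-4.0, SE 0.40, adjusted p = 2.1e-19 by limma), Ccnb2 (-3.80), Plk1 (-3.54) and Rrm2 (-3.40) falling most. Top2a fell by 2.81, Stmn1 by 3.18, Mcm5 by 1.71, Mki67 by 1.67, Cdk1 by 1.53 and Pcna by 1.07. P3C (0.001 ug/ul, 6 wells) lowered 41 genes (23.1% of all), led by Plk1 (-3.60), Ccnb2 (-3.59), Cenpa (-3.58) and Mcm7 (-3.32), while E2f1 (0.31), Ccne1 (-0.37) and Ccne2 (-0.17) were not called. Under P3C, Stmn1 fell by 3.10, Rrm2 by 2.81, Cdk1 by 2.77, Mcm5 by 2.67, Top2a by 2.58, Ccnb1 by 2.39, Mki67 by 1.77 and Pcna by 1.57. All 6 licensing genes were lower under LPS_hi, LPS_lo and P3C. In edge wells alone, where 4 of the 6 P3C wells lay, 6 genes were lower under P3C.

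The interferons, antiviral cytokines, lowered most of the 50 genes. IFNa (0.0008 ug/ul, 8 wells) lowered 42 genes (20.7% of all), IFNb (0.0001 ug/ul, 10 wells) 39 (12.3%) and IFNg (0.0001 ug/ul, 9 wells) 37 (13.5%). All 12 chromosome and kinetochore genes and all 3 degradation genes were lower in each, but of the 6 licensing genes 5, 4 and 2 were. Under IFNb, Top2a ran from 1.11 to 150 CPM (median 59.1), Ccnb1 from 0 to 11.7 (median 6.57) and Mki67 from 0 to 15.3 (median 3.34), low against the untreated medians of 344, 32.2 and 20.4. The largest falls under IFNb were those of Ccnb2 (-3.05), Plk1 (-2.93), Ube2c (-2.75) and Ckap2 (-2.70), and Top2a fell by 2.61 (SE 0.31, adjusted p = 6.8e-14 by limma), Ccnb1 by 2.53, Mki67 by 2.49, Rrm2 by 2.13, Stmn1 by 2.01, Mcm5 by 0.92 and Cdk1 by 0.82 (adjusted p = 0.035). Under IFNa the largest were Ccnb2 (-3.48), Plk1 (-3.07), Rrm2 (-3.01) and Ube2c (-2.77), and Top2a fell by 2.48, Ccnb1 by 2.42, Stmn1 by 2.00, Mki67 by 1.79, Cdk1 by 1.68, Mcm5 by 1.22 and Pcna by 0.46. Under IFNg they were Ckap2 (-2.67), Mki67 (-2.53), Prc1 (-2.47), a gene of the central spindle, and Kif23 (-2.46), a kinesin gene of cytokinesis, and Stmn1 fell by 2.01, Top2a by 1.91, Ccnb1 by 1.53, Cdk1 by 1.19, Rrm2 by 1.16 and Mcm5 by 0.99.

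The 5 rises at 24 h all came with the interferons or IC. Tpx2, which encodes an activator of Aurora A at the spindle, ran from 95.6 to 413 CPM under IFNa (median 320) and from 74.7 to 303 under IFNb (median 174), against 9.14 to 209 (median 85.2) in untreated wells, and rose by 1.68 (adjusted p = 7.8e-05 by limma) and 1.24 (adjusted p = 0.0026). Melk ran from 8.94 to 27.2 CPM under IFNb (median 21.5) and from 1.06 to 30.2 under IC (median 16.3), against 0 to 15.2 (median 4.12), and rose by 1.92 (adjusted p = 4.2e-06) and 1.90 (adjusted p = 1.5e-04). Pcna ran from 1353 to 2288 CPM under IFNg (median 1774), with its lower wells inside the untreated range, which ended at 1499, and rose by 0.63 (adjusted p = 4.6e-04). Pcna was not called under IFNb (0.15). Of all genes 7.41% rose under IFNa, 8.37% under IFNb, 8.33% under IFNg and 6.64% under IC.

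IC (0.2 ug/ul, 8 wells, 6 at the edge) lowered 36 genes (9.29% of all). Plk1 (-3.11), Mki67 (-2.98), Ccnb2 (-2.90) and Stmn1 (-2.71, SE 0.31, adjusted p = 9.7e-15 by limma) fell most. Rrm2 fell by 2.37, Top2a by 2.18, Ccnb1 by 1.53, Cdk1 by 1.35 and Mcm5 by 0.95 (adjusted p = 0.042), and Pcna (-0.41) was not called. Against untreated wells of the same plate and position, the median difference of the 50 genes under IC was -2.71 in 2 middle wells of plate G and -0.32 in 5 edge wells of plate C. In edge wells alone 0 genes were lower under IC and 2 were higher.

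Resveratrol, rapamycin, PGE2, ATP and minocycline lowered cell cycle genes while small shares of all genes were lower. Resveratrol (50 uM, 11 wells), a plant polyphenol, lowered 44 of 50 genes but 2.92% of all genes, and the median of the 50 was -1.69 where that of all genes was -0.00931. Under resveratrol Top2a ran from 4.69 to 115 CPM (median 49.7), Mki67 from 0.267 to 10.8 (median 4.62) and Ccnb1 from 0.107 to 18.5 (median 9.01). Prc1 (-2.75), Top2a (-2.64, SE 0.30, adjusted p = 3.7e-14 by limma), Ccnb2 (-2.58) and Plk1 (-2.45) fell most, Ccnb1 fell by 1.91, Mcm5 by 1.86, Rrm2 by 1.82, Mki67 by 1.8, Pcna by 1.30 and Stmn1 by 1.23, and Cdk1 (-0.85, adjusted p = 0.070) did not pass. Rapamycin (5 nM, 11 wells), an inhibitor of the growth kinase mTOR, lowered 29 genes (1.27% of all), with Rrm2 (-2.0), Plk1 (-1.86), Tk1 (-1.73) and Top2a (-1.70) falling most, and 5 of 6 licensing genes and 5 of 6 DNA synthesis genes were lower. Ccnb1 fell by 1.52, Mcm5 by 1.51, Pcna by 0.99 and Stmn1 by 0.91 under rapamycin, while Cdk1 (-0.94) and Mki67 (-0.90) were not called.

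PGE2 (0.001 ug/ul, 8 wells), a lipid mediator of inflammation, lowered 26 genes (0.58% of all). Prc1 (-2.41), Ccnb1 (-2.04), Nuf2 (-1.92), which encodes a kinetochore subunit, and Tk1 (-1.82) fell most, Rrm2 fell by 1.77, Top2a by 1.73, Mki67 by 1.62, Mcm5 by 1.53 and Stmn1 by 1.39, and Cdk1 (-0.68) and Pcna (-0.51) were not called. ATP (1000 uM, 9 wells) lowered 20 genes (0.742% of all), led by Ccnb2 (-2.18), Ccnb1 (-1.92), Cdca3 (-1.82) and Kif23 (-1.78). Under ATP, Mki67 fell by 1.61, Top2a by 1.36 and Stmn1 by 1.31, and Rrm2 (-1.33), Mcm5 (-1.08), Cdk1 (-0.53) and Pcna (-0.06) were not called. Minocycline (12 wells), a tetracycline antibiotic, lowered 9 of the 50 genes and 25 genes in all (0.169%), among them Top2a (-1.57, SE 0.29, adjusted p = 7.8e-04 by limma), Racgap1 (-1.57), Ndc80 (-1.43) and Tk1 (-1.35). Mcm5 fell by 1.34 and Stmn1 by 1.00, and Cdk1 (-1.06), Ccnb1 (-1.24), Rrm2 (-1.23), Mki67 (-0.91) and Pcna (-0.50) were not called. In middle wells alone 5 of the 50 genes were called under minocycline.

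**Figure D3:**
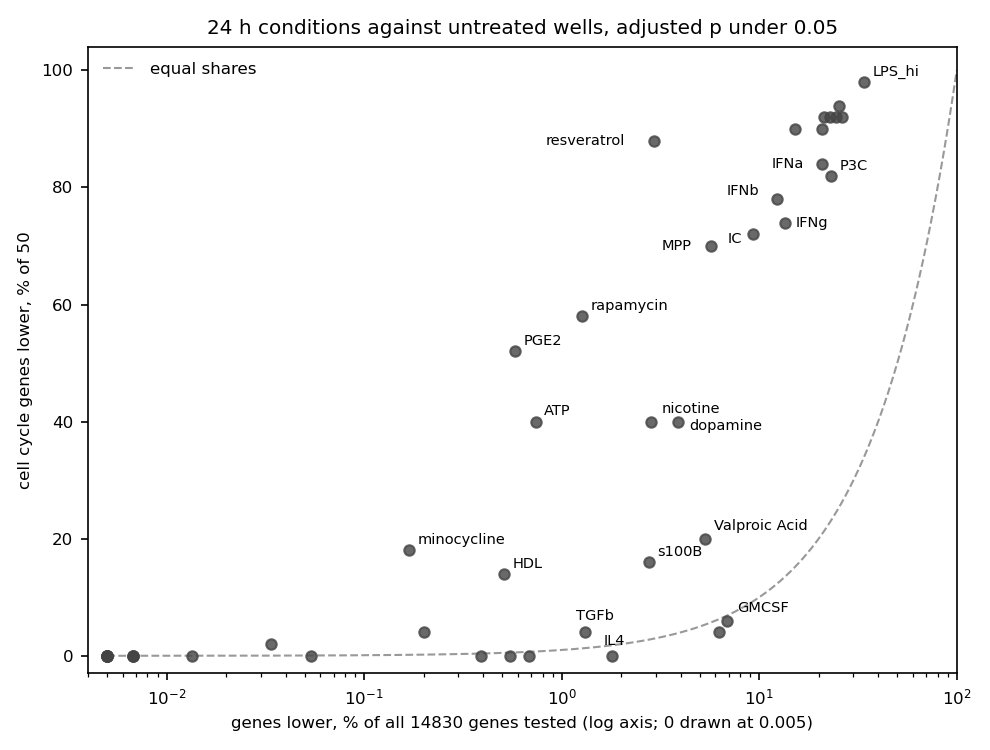
Each point is a condition at 24 h: the percent of all 14830 genes lower than in untreated wells (x, log axis, 0 drawn at 0.005) against the percent of the 50 genes lower (y), both in percent, with a dashed curve of equal shares. Resveratrol (2.92% of all genes, 44 of the 50), rapamycin and PGE2 stand far above the curve at low x, LPS_hi, IFNa and P3C at high x.

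MPP (100 uM, 8 wells) lowered 35 genes (5.73% of all) and raised several brakes. Tk1 ran from 7.09 to 32.5 CPM under MPP (median 14.9), against 6.93 to 389 (median 140) in untreated wells, and fell by 2.65. Rrm2 (-2.44), Prc1 (-2.23) and Mcm5 (-2.22, SE 0.33, adjusted p = 9.5e-09 by limma) followed, Top2a fell by 2.19, Ccnb1 by 1.5, Mki67 by 1.38, Cdk1 by 1.28 and Stmn1 by 0.86, and Pcna (-0.37) was not called. Of 17 brakes 5 rose, with Gadd45a (3.24) and Cdkn1c (2.53), a Cdk inhibitor gene, among them. Nicotine (8 wells) lowered 20 genes (2.85% of all), with Rrm2 (-2.12), Ccnb1 (-1.97), Kif23 (-1.87) and Ndc80 (-1.65) falling most, Pcna falling by 1.15 and Stmn1 by 1.06, and Mki67 (-1.06), Top2a (-1.06), Mcm5 (-0.94) and Cdk1 (-0.83) not called. Dopamine (9 wells) lowered 20 genes (3.9% of all), with Ccna2 (-2.01), Top2a (-1.95), Prc1 (-1.91) and Spc25 (-1.79) falling most, Rrm2 falling by 1.68, Ccnb1 by 1.44, Mcm5 by 1.38 and Stmn1 by 1.11, and Mki67 (-0.87), Cdk1 (-0.82) and Pcna (-0.31) not called. In middle wells alone only 1 gene was lower under dopamine. Valproic Acid (6 wells), a histone deacetylase inhibitor, lowered 10 genes (5.33% of all), with Ckap2 (-3.78), Ccna2 (-3.77), Nuf2 (-2.85) and Nusap1 (-2.55) falling most, Cdk1 falling by 2.00 and Pcna by 1.95. Under Valproic Acid, Rrm2 (-2.14), Mki67 (-1.59), Top2a (-0.62), Mcm5 (-0.49), Stmn1 (-0.35) and Ccnb1 (0.69) were not called. Its 4 edge wells were the only cultures of their plate at this time, so agent and plate cannot be told apart in them. The folds under Valproic Acid therefore rest on its 2 middle wells, on plate G.

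Growth factor and anti-inflammatory stimuli left most of the 50 genes uncalled at 24 h. GMCSF (0.000005 ug/ul, 8 wells), a colony-stimulating factor, lowered Cdca3 (-1.8), Bub1b (-1.79) and Ect2 (-1.37) and raised none (6.85% of all genes were lower). Top2a ran from 30.5 to 664 CPM under GMCSF (median 405) and Cdk1 from 23.2 to 221 (median 139), within the untreated range for the first and partly above it for the second. The folds of Mki67 (0.23), Cdk1 (0.21), Mcm5 (0.03), Rrm2 (0.01), Pcna (-0.10), Top2a (-0.15), Stmn1 (-0.15) and Ccnb1 (-0.47) were not called, while Myc (1.95) and the receptor gene Csf2rb (1.73) rose. Under IL4 (0.00005 ug/ul, 11 wells) none of the 50 was called by limma (3.96% of all genes were called), with 4 of the 50 at an unadjusted p under 0.05 and a median of 0.151. Its folds lay between -0.12 for Stmn1 and 0.31 for Pcna among the genes given throughout, Top2a at -0.08 and Mki67 at -0.07. Against untreated wells of the same plate and position, the median difference of the 50 genes under IL4 was 0.543 in 3 middle wells of plate A. It was 0.811 in 2 middle wells of plate C and -0.0725 in 3 edge wells of plate A. In these comparisons 5, 4 and 30 of the 50 genes were lower. TGFb (8 wells) lowered Kif23 (-1.97) and Ndc80 (-1.33) (1.31% of all genes were lower), and Mki67 (-1.14), Rrm2 (-0.98), Mcm5 (-0.98), Top2a (-0.80), Stmn1 (-0.68), Ccnb1 (-0.48), Pcna (-0.31) and Cdk1 (-0.13) were not called. A gene that was not called is not shown to be unchanged.

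Cell cycle genes were also low where LPS was given with a second agent for 24 h. LPS_hi with estradiol lowered 46 genes (24.6% of all), with GABA 46 (26.4%) and with minocycline 47 (25.3%), and LPS_lo with CCL2 lowered 46 (21.2%), with rapamycin 46 (22.7%) and with resveratrol 45 (15.2%). The largest falls were those of Ccnb2 (-3.74), Ube2c (-3.70), Ccna2 (-3.69) and Rrm2 (-3.56) with LPS_hi and estradiol, Ccnb2 (-4.64), Plk1 (-3.88), Prc1 (-3.86) and Ube2c (-3.84) with LPS_hi and GABA, and Ccnb2 (-4.64), Plk1 (-4.56), Tk1 (-4.36) and Prc1 (-4.13) with LPS_hi and minocycline. With LPS_lo they were Ccnb2 (-4.18), Plk1 (-3.81), Ube2c (-3.77) and Ccna2 (-3.48) for CCL2, Ccnb2 (-4.22), Cenpa (-4.16), Prc1 (-3.76) and Racgap1 (-3.66) for rapamycin, and Plk1 (-3.75), Ccnb2 (-3.65), Tk1 (-3.38) and Prc1 (-3.37) for resveratrol. All 8 genes given throughout fell in these 6 combinations, Top2a by between 2.52 and 4.05, Rrm2 by between 2.90 and 3.85, Ccnb1 by between 2.41 and 3.58, Stmn1 by between 2.47 and 3.46, Mcm5 by between 1.67 and 2.69, Cdk1 by between 1.78 and 2.46, Pcna by between 1.17 and 1.96 and Mki67 by between 1.16 and 1.96. Compared with LPS alone at the same dose and time, 14 of 950 pairs of gene and combination were called over 19 comparisons, 8 higher and 6 lower, against 2.33% of all genes. At 24 h these were Mcm7 (-1.76) for minocycline, Pcna (-0.89) for rapamycin, and Mcm6 (-1.27), Mcm2 (-1.49) and Ccnb1 (1.59) for resveratrol. At 4 h, nicotine gave E2f1 (1.60) and Kif20a (2.32), and norepinephrine gave Pcna (-0.70) and Kif20a (1.62). At 72 h, all with LPS_lo, IFNg gave Mcm4 (2.03) and Ccne1 (3.36), IL10 gave Cenpf (2.48), the 3 cytokines IL4, IL10 and IL13 together gave Rrm2 (2.78), and TGFb gave Hmmr (-2.41).

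Because edge wells were low before any stimulus, the median difference of the 50 genes from untreated wells of the same plate and position was taken for each condition with 10 or more genes called. In middle wells at 24 h it ran from -3.56 to -0.29 over 39 comparisons of plate and condition (median -2.11), all 39 below 0. In edge wells it ran from -1.9 to 0.191 over 28 comparisons (median -0.597), 26 of them below 0. These conditions were chosen for their calls in the same wells, nearly all falls, so the sign was largely set by that choice. Over all 24 h conditions the median difference ran from -3.56 to 0.818 in 75 middle comparisons (median -0.897), 58 of them below 0. In 72 edge comparisons it ran from -1.9 to 0.686 (median -0.313), 57 of them below 0. For LPS_hi it ran from -2.93 to -2.18 in the middle wells of plates A, D, G and H, and was -1.9 in 3 edge wells of plate A and -0.788 and -0.818 in 1 edge well each of plates C and D. For resveratrol it was -0.951 and -2.57 in the middle wells of plates A and H, and -0.631 and -0.174 in the edge wells of plates D and H.

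**Figure D4:**
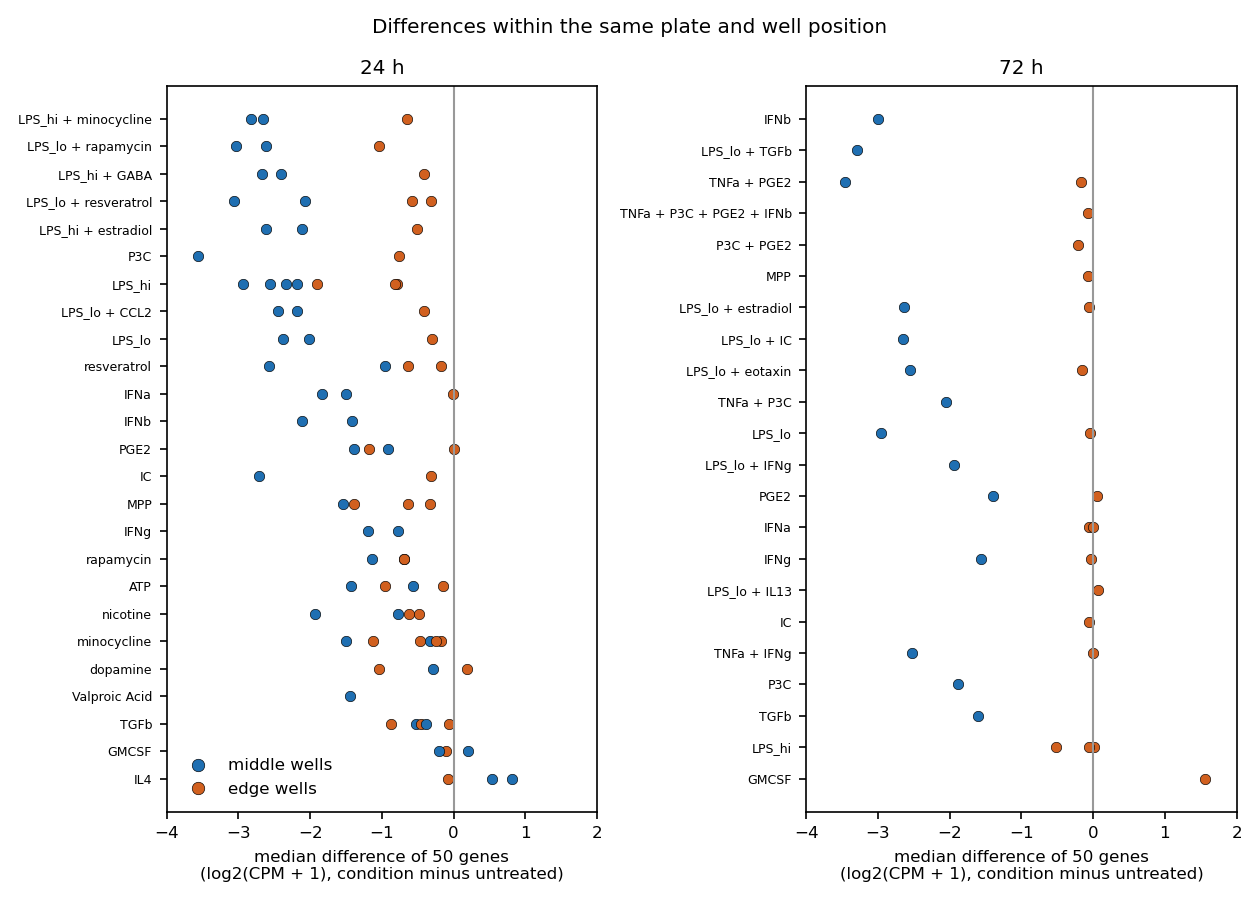
Median over the 50 genes of the log2 difference between a condition and untreated wells of the same plate and position, 1 point per plate. Blue is middle, orange is edge. Conditions with 10 or more genes called are drawn, and also GMCSF, IL4, TGFb and minocycline at 24 h and GMCSF and TGFb at 72 h. Under conditions with 10 or more genes called, middle wells lie between -3.56 and -0.29 at 24 h and between -3.46 and -1.4 at 72 h. Their edge wells at 72 h lie between -0.516 and 0.0663. Among the others, IL4 reaches 0.811 in middle wells of plate C at 24 h, and GMCSF 1.56 in 1 edge well of plate I at 72 h.

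At 4 h there were no untreated wells, so the 9 conditions were compared with untreated wells at 24 h, from which time and stimulus cannot be told apart, and LPS_hi also with CCL2 and CCL7 at 4 h. Over the 9 conditions 188 of 450 pairs were lower and 5 higher, against 17.1% and 5.13% of all genes. Under LPS_hi (7 wells) Cdk1 ran from 0.702 to 35.8 CPM (median 18.3), Top2a from 5.62 to 280 (median 125) and Mki67 from 8.08 to 43.8 (median 29.6). Cdk1 was thus low against untreated wells while Mki67 was not. Of the 50 genes 40 were lower (40.7% of all genes were), led by Ckap2 (-2.86), Kif23 (-2.81), Tk1 (-2.79) and Mcm7 (-2.52). Rrm2 fell by 2.32 (SE 0.44, adjusted p = 1.7e-06 by limma), Mcm5 by 1.94, Cdk1 by 1.86, Ccnb1 by 1.40 and Top2a by 1.21, while Mki67 (0.54), Pcna (0.24) and Stmn1 (-0.20) were not called. The brake Cdkn1a (3.31), the cyclin gene Ccnd2 (3.35) and Csf1 (3.81) rose and Rb1, the retinoblastoma gene, fell by 3.52. Against CCL2 and CCL7 at the same time, 36 genes were lower (37.6% of all), Kif20a by 2.82, and Mki67 was higher (1.14, adjusted p = 0.029).

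LPS_hi with nicotine lowered 37 genes at 4 h (21.7% of all), with norepinephrine 40 (32.6%) and with ATP 36 (26.6%). All 8 wells of LPS_hi with nicotine lay at the edge, and in edge wells alone 4 genes were lower with nicotine, 6 with norepinephrine, 3 with ATP and 7 under LPS_hi itself. In middle wells alone 27 were lower with norepinephrine, 19 with ATP and 39 under LPS_hi itself. Plk1 (-3.62), Kif23 (-2.61), Mcm7 (-2.36) and Ccnb2 (-2.35) fell most with nicotine, Mcm2 (-2.75), E2f1 (-2.53), Tk1 (-2.13) and Kif23 (-2.13) with norepinephrine, and Plk1 (-3.98), Kif23 (-2.89), Prc1 (-2.76) and Tk1 (-2.63) with ATP. Mki67 rose by 1.2 with norepinephrine (adjusted p = 0.0096 by limma) and Pcna by 0.72 with ATP (adjusted p = 0.0013). Without LPS, ATP lowered 12 genes (12.5% of all), Cdca8 (-2.0), Plk1 (-1.98), Nuf2 (-1.74) and Ccna2 (-1.67) most, and raised Cenpa (1.63) and Aurka (1.16), where 4.29% of all genes rose. Nicotine lowered 11 (3.76% of all), Ccnb2 (-1.87), Plk1 (-1.8), Ccnb1 (-1.58) and Nusap1 (-1.56) most, all 8 of its wells lying at the edge. Against untreated edge wells alone, 0 genes were called under nicotine and the median over the 50 genes turned to 0.16, and on plate D it was 0.328 against 1 untreated edge well. Norepinephrine lowered 11 (14.4% of all), Ccnb1 (-1.8), Kif20a (-1.52), Cdca3 (-1.23) and Melk (-1.23) most, and raised Cenpa (1.83, adjusted p = 4.7e-05). Over the 7 conditions with 10 or more calls, Top2a ran from -1.52 to -0.62, Cdk1 from -1.86 to -0.10, Ccnb1 from -2.04 to -0.62, Rrm2 from -2.32 to -0.44, Mcm5 from -1.98 to -0.02, Stmn1 from -1.27 to -0.04, Pcna from -0.70 to 0.72 and Mki67 from -1.54 to 1.2. In middle wells alone 4 genes were called under ATP and 2 under norepinephrine, and under ATP 8 were called without well 1, 8 without well 4 and 6 without well 5.

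At 72 h, 571 of 2100 pairs over 42 conditions were lower and 20 higher, against 2.94% and 2.41% of all genes, with 10 or more genes called in 22 conditions. Plk1 was lower in 22 conditions, Ckap2 in 21, and Mcm7 and Ccna2 in 19 each, while Ccne1, Ccne2 and E2f1 were lower in none. The calls depended on the position term: without plate and position as terms 116 pairs were lower and 178 higher, in middle wells alone 686 were lower and 3 higher, in edge wells alone 11 were lower and 18 higher, and with an edge term for each plate 421 were lower and 106 higher. The median difference of the 50 genes from untreated wells of the same plate and position was again taken for conditions with 10 or more calls. In middle wells it ran from -3.46 to -1.4 over 13 comparisons (median -2.55). In edge wells, in which the untreated level was itself low, it ran from -0.516 to 0.0663 over 17 (median -0.0632). Over all 72 h conditions it ran from -3.46 to -0.0178 in 15 middle comparisons (median -2.53). In 30 edge comparisons it ran from -0.53 to 1.56 (median -0.0544).

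IFNb at 72 h (4 wells, all in the middle of plate F with untreated wells beside them) could be compared within 1 plate. Stmn1 ran from 6.5 to 21 CPM against 384 to 542 in the untreated middle wells, Ccnb2 from 0 to 3.05 against 88.5 to 237, and Plk1 from 0 to 3.09 against 35.6 to 90.3. None of these groups overlapped. Of the 50 genes 33 were lower and none higher, while 1.47% of all genes were lower, with medians of -2.69 for the 50 and -0.0744 for all. With 1 of the 4 wells left out, 23 to 26 of the 50 were called. Ccnb2 (-5.06), Ube2c (-4.90), Ccna2 (-4.62) and Stmn1 (-4.60, SE 0.89, adjusted p = 4.9e-05 by limma) fell most, Top2a fell by 4.41, Ccnb1 by 4.18, Rrm2 by 3.88, Mcm5 by 3.22 and Mki67 by 3.21, and Cdk1 (-1.30) and Pcna (-0.28) were not called. Tpx2, which had risen at 24 h, ran from 117 to 155 CPM against 102.5 to 185 in the untreated middle wells.

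LPS_hi at 72 h (13 wells, 10 at the edge) lowered 21 genes (11.8% of all), led by Cenpa (-3.36), Mcm7 (-2.35), Mcm2 (-2.17) and Ccnb2 (-1.87). Pcna ran from 96.1 to 187 CPM in the 3 middle wells and from 198 to 1259 in the edge wells (median 536), where untreated wells ran from 990 to 1654 and from 650 to 1542, and fell by 1.31 (SE 0.17, adjusted p = 9.9e-12 by limma). The 3 middle wells lay on 1 plate that held no untreated middle wells, so LPS_hi and plate cannot be told apart in them. Top2a fell by 1.79, Rrm2 by 1.55 and Mki67 by 1.39, while Stmn1 (-1.39), Cdk1 (-1.27), Mcm5 (-0.64) and Ccnb1 (-0.39) were not called. Within plates E, I and J the median difference of the 50 genes in edge wells was 0.01, -0.52 and -0.06. LPS_lo at 72 h (11 wells, 9 in the middle) lowered 37 genes (5.83% of all), with Ccnb2 (-2.98), Stmn1 (-2.92), Rrm2 (-2.84) and Mcm7 (-2.79) falling most, and its median difference within plate was -2.96 in the middle of plate F and -0.05 at the edge of plate E.

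In the other conditions at 72 h with 10 or more calls, nearly all calls were falls. LPS_lo with TGFb lowered 38 genes (4.26% of all), Ccnb2 (-4.60), Stmn1 (-3.98), Ube2c (-3.88) and Cenpa (-3.77) most. With estradiol it lowered 35 (6.65%), Mcm7 (-4.33), Ccnb2 (-3.35), Cdca3 (-2.87) and Kif11 (-2.77) most, and with eotaxin 32 (4.36%), Mcm7 (-4.19), Prc1 (-3.82), Cenpa (-3.68) and Birc5 (-3.57) most. With IC it lowered 32 (4.84%), Ccna2 (-3.52), Cenpa (-3.26), Kif23 (-3.19) and Ube2c (-3.17) most, and with IFNg 22 (6.93%), Plk1 (-3.28), Cenpa (-3.04), Ccnb2 (-2.87) and Birc5 (-2.70) most. With IL10 it lowered 21 (2.32%), Mcm7 (-5.32), Stmn1 (-4.58), Racgap1 (-3.44) and Ccna2 (-3.36) most, and with IL13 11 (2.04%), Mcm7 (-4.18), Ccna2 (-3.51), Racgap1 (-2.85) and Ube2c (-2.77) most. For LPS_lo with IL10 the count was 12 without well 4, and for LPS_lo with IL13 it was 7 without well 1, 2 or 3 and 3 without well 5.

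TNFa with PGE2 lowered 41 genes (5.51% of all), Cenpa (-4.15), Stmn1 (-4.08), Ccnb2 (-3.97) and Spc25 (-3.96) most, and Pcna fell by 2.22 (SE 0.22, adjusted p = 7.3e-19 by limma). Within plate, the median difference of the 50 genes under TNFa with PGE2 was -3.46 in the middle of plate F. It was -0.17 in 1 edge well of plate J. TNFa with P3C lowered 31 (7.63%), Mcm7 (-4.15), Spc25 (-2.97), Mcm4 (-2.89) and Mcm2 (-2.81) most, and TNFa with IFNg 21 (5.56%), Cenpf (-2.65), Prc1 (-2.47), Cenpe (-2.42) and Cdca3 (-2.18) most. P3C with PGE2 lowered 28 (3.65%), Cenpa (-3.82), Prc1 (-3.02), Top2a (-2.98) and Ckap2 (-2.95) most. TNFa, P3C and PGE2 together lowered 22 (5.74%), Prc1 (-3.50), Ccna2 (-3.49), Cenpa (-2.97) and Mcm7 (-2.91) most, and these with IFNb 35 (5.62%), Tk1 (-3.40), Plk1 (-3.37), Ccna2 (-3.24) and Prc1 (-3.21) most.

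Of single agents at 72 h, MPP lowered 23 genes (2.86% of all), Mcm7 (-4.28), Tpx2 (-4.13), Tk1 (-3.83) and Ccna2 (-3.77) most. IFNg lowered 16 (5.55%), Mcm7 (-3.72), Mcm2 (-3.37), Stmn1 (-2.96) and Cdk1 (-2.90) most, and IFNa 14 (2.5%), Stmn1 (-3.37), Tk1 (-3.02), Plk1 (-3.02) and Mcm7 (-2.92) most. For IFNa only edge wells could be compared within plate and position. There the median difference of the 50 genes was -0.0626 on plate E and 0 on plate I. IC lowered 14 (2.39%), Mcm7 (-2.80), Prc1 (-2.77), Cenpa (-2.66) and Cenpe (-2.39) most, PGE2 13 (1.22%), Mcm2 (-2.50), Ube2c (-2.29), Cdca3 (-2.26) and Rrm2 (-2.20) most, and P3C 11 (3.88%), Mcm7 (-2.78), Cdca3 (-2.72), Prc1 (-2.65) and Plk1 (-2.31) most. In middle wells alone the counts were 2 for IFNg, 24 for PGE2, 25 for P3C and 29 for IC. Over all 22 conditions with 10 or more calls at 72 h, the fold of Rrm2 ran from -3.88 to -0.99, that of Mcm5 from -3.22 to -0.52, that of Stmn1 from -4.60 to -1.07, that of Top2a from -4.41 to -1.0 and that of Mki67 from -3.21 to -1.13. Cdk1 ran from -3.22 to -0.29, Ccnb1 from -4.18 to 0.16 and Pcna from -2.22 to 0.12.

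The 20 rises at 72 h were led by those under GMCSF, and with an edge term for each plate there were 32 under GMCSF, 19 under IL13, 16 under PA and 9 under LiA. Under GMCSF (7 wells) Ccnb1 ran from 69.7 to 205 CPM in the 6 middle wells (median 96.7) and was 5.30 in the edge well, against 35.2 to 63.7 in untreated middle wells and 0 to 9.21 in untreated edge wells. Cdk1 ran from 166 to 377 in the middle wells (median 201) and was 39 in the edge well, against 108 to 227 and 0 to 47.8. For Ccnb1 every middle well under GMCSF lay above every untreated middle well. Of the 50 genes 7 were higher, where 3.68% of all genes were, and none was lower: Ccnb1 (2.95, SE 0.73, adjusted p = 0.0039 by limma), Cdk1 (2.81, SE 0.76, adjusted p = 0.010), Prc1 (2.78), Cdca8 (2.37), Ccnb2 (2.30), Kif11 (2.09) and Uhrf1 (1.93). Rrm2 (1.79), Top2a (1.62), Mki67 (1.5), Stmn1 (1.5), Mcm5 (1.15) and Pcna (0.34) were not called. No middle well under GMCSF shared a plate with untreated middle wells, and 0 genes were called in middle wells alone and 4 in edge wells alone, so GMCSF and plate cannot be told apart in the middle wells.

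TNFa at 72 h (3 middle wells, none on a plate with untreated middle wells) raised Ccne1 (3.13), Cdca3 (2.98), Cdca8 (2.71), Mki67 (2.23, adjusted p = 0.025 by limma) and Kif11 (2.18), where 5.64% of all genes rose, and lowered Spc25 (-3.40) and Melk (-2.24). Ccnb1 (-1.40), Mcm5 (-0.96), Rrm2 (0.44), Stmn1 (0.28), Top2a (0.24), Cdk1 (0.20) and Pcna (-0.14) were not called, and without well 1 the count was 4 in place of 7. Cdc20, an activator gene of the anaphase-promoting complex, was higher under IL4 (2.53), IL13 (2.35), GABA (2.35) and PA (1.88), Uhrf1 under LiA (2.44) and PA (2.02), Cenpf under GABA (2.35), and Ccne1 under LPS_lo with IFNg (2.63). In middle wells alone 0 of the 50 genes were higher under IL4, IL13, GABA, PA and LiA, and 0 were called under IL4 without any 1 of its 3 wells. TGFb at 72 h (4 wells) called none of the 50 by limma (0.756% of all genes were called), with 16 of the 50 at an unadjusted p under 0.05 and a median of -1.14. Its folds ran from -2.0 for Mcm5 to -0.59 for Stmn1, with Top2a at -1.48, Rrm2 at -1.32, Mki67 at -1.29, Ccnb1 at -1.09, Cdk1 at -0.79 and Pcna at -0.64.

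The 50 genes moved together across the cultures. With values centred within plate, the correlation between pairs of the 50 had a median of 0.529 over 1225 pairs and 784 cultures, from 0.0578 for Pcna and E2f1 to 0.822 for Ccnb2 and Ube2c. Centred within plate and position the median was 0.424, and after condition, plate and well type were taken out it was 0.177. These cultures share plates, lots and sequencing pools, so the correlations are descriptions. Ccne2, E2f1 and Kif20a followed the other genes least, with 0.172, 0.317 and 0.353 to their mean. Condition went with a median of 46.9% of the variance of a gene (23.9% over all genes), plate with 16.4% (14.6%) and position with 13.9% (0.222%). Of the genes outside the list, the 10 most like the mean of the 50 were Fam64a (r = 0.847), Pbk (0.846), Anln (0.826), Knstrn (0.797), Ckap2l (0.787), Aspm (0.785), Troap (0.776), Tcf19 (0.774), Clspn (0.766) and Iqgap3 (0.76), and the least like were Fth1 (-0.681), Esd (-0.645) and Pla2g7 (-0.64).

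In microglia taken from adult mice many of the 50 genes did not pass the filter on low values. Mki67 ran from 0.396 to 1.73 CPM in the PBS mice, Rrm2 from 0.984 to 1.59 and Top2a from 22.1 to 27.4, while Pcna ran from 297 to 335 and Stmn1 from 64.1 to 131. In the LPS experiment 20 passed and in the aging experiment 27, and the mouse table was normalized apart from that of the cultures, so no test was made between them. Kif20a stood apart by library, with 54.7 to 114 CPM in the LPS experiment and the first library series of the aging mice and at most 0.302 in the second series. Other genes also differed between the first and second series, Racgap1 with medians of 6.97 and 35.5 CPM and Cdca8 with medians of 23.6 and 10.

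At 4 h after LPS, 4 of the 20 genes tested were lower than in PBS mice and 2 were higher, where 13.6% of 9012 genes were lower and 8.79% higher. Both counts lay near these shares, so no response of the list as a whole is shown by them. Ccnb1 was 6.75, 7.27, 7.95 and 10.6 CPM in the PBS mice and 3.41, 3.49, 3.88 and 4.31 in the LPS mice, and fell by 0.92 (SE 0.26, adjusted p = 0.023 by limma). Top2a was 22.1, 22.8, 23.2 and 27.4 against 14.5, 14.9, 15.2 and 17.9, and fell by 0.58 (SE 0.17, adjusted p = 0.029). Mcm7 ran from 34.9 to 43.6 against 19.8 to 25.6 (-0.80, adjusted p = 0.0023) and Kif20a from 98.3 to 106 against 54.7 to 75.6 (-0.58, adjusted p = 0.0087). In these 4 genes no LPS mouse reached the lowest PBS mouse. Tk1 went the other way, with 7.55, 10.6, 11.3 and 12.2 CPM in the PBS mice and 13.9, 21.7, 21.9 and 24.6 in the LPS mice (0.91, adjusted p = 0.011), as did Nuf2, with 7.20 to 9.60 against 9.54, 12.7, 29.6 and 31 (1.08, adjusted p = 0.030), where the lowest LPS mouse lay within the PBS range. Cdk1 (-0.80, adjusted p = 0.087), Stmn1 (-0.27) and Pcna (-0.02) were not called, and Mki67, Rrm2 and Mcm5 were not tested. The brakes Cdkn1a (3.33) and Btg2 (2.72) and the cyclin gene Ccnd2 (1.54) rose and Dut fell by 1.27. Without PBS mouse 3 the count was 3 in place of 6. Neutrophil markers summed to a median of 213 CPM in the LPS mice and 86.8 in the PBS mice, 3 of the 4 tested being higher. Monocyte markers summed to 43.9 to 96.6 CPM (median 79.8) in the LPS mice and 20.2 to 45.9 (median 38.2) in the PBS mice, 2 of 4 being higher and 1 lower, and oligodendrocyte lineage markers to medians of 386 and 850, 1 of 5 being lower. The part of these markers in the results was not tested.

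**Figure D5:**
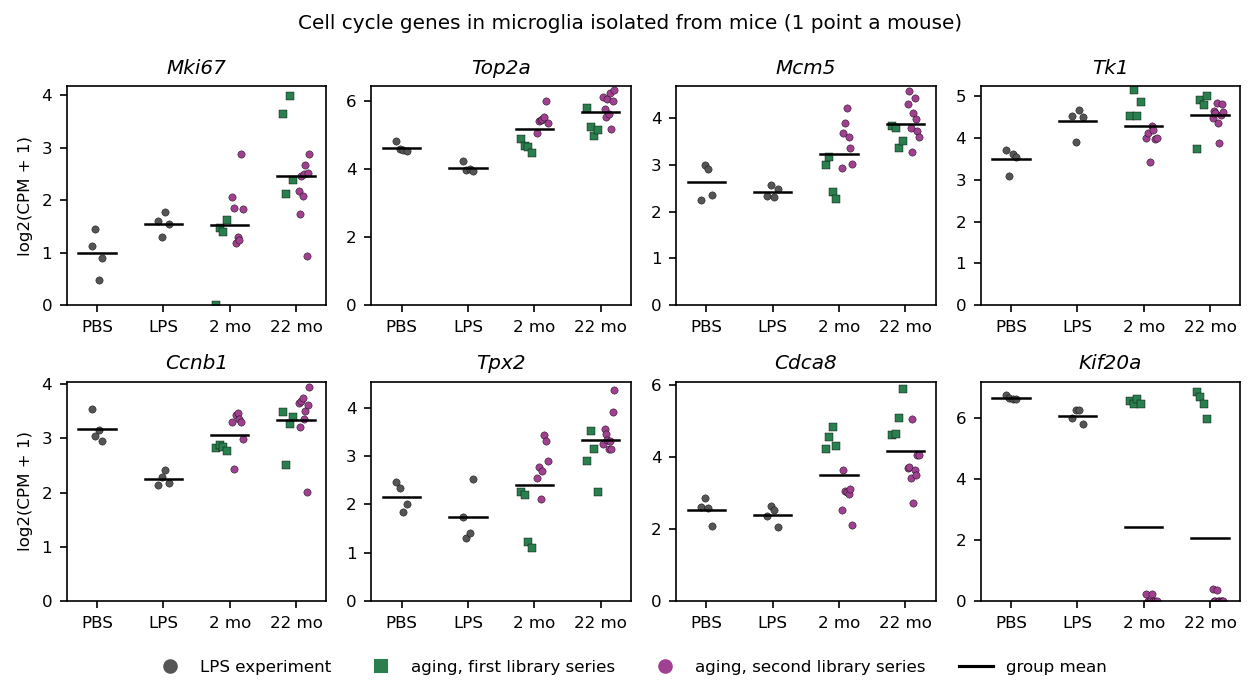
Log2(CPM + 1) of 8 of the genes in each mouse, for PBS and LPS (grey points) and for 2 and 22 months (green squares, first library series; purple, second series), with the group mean as a line. Ccnb1 and Top2a lie lower in all 4 LPS mice than in any PBS mouse and Tk1 higher, and Kif20a falls to near 0 in the second library series at both ages.

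With age, 9 of 27 genes were higher in mice of 22 months and none was lower, with library series as a term, where 6.95% of 9632 genes were higher. Tpx2 ran from 1.13 to 9.89 CPM at 2 months (median 4.85) and from 3.81 to 19.7 at 22 months (median 8.99), and rose by 0.88 (SE 0.20, adjusted p = 0.0043 by limma). Top2a ran from 21.3 to 63.2 (median 39.9) and from 30.5 to 79.6 (median 53.5), and rose by 0.48 (SE 0.12, adjusted p = 0.010). Mcm5 ran from 3.84 to 17.4 (median 7.96) and from 8.72 to 22.6 (median 12.8), and rose by 0.60 (SE 0.17, adjusted p = 0.020). The age groups overlapped for all 3. Cdca8 (0.75), Cenpf (0.67), Racgap1 (0.57), Prc1 (0.57), Cenpa (0.48) and Mcm2 (0.40) rose too, so that 4 of 6 chromosome and kinetochore genes tested, 3 of 4 spindle and cytokinesis genes and 2 of 6 licensing genes were higher, and none of the 4 DNA synthesis and 5 mitotic kinase and cyclin genes. Ccnb1 (0.27), Cdk1 (0.08), Stmn1 (-0.09) and Pcna (-0.13) were not called, and Mki67 and Rrm2 were not tested. Of the pathway genes, Cdkn1a (0.70), Ccnd2 (0.62) and Csf1 (0.74) rose. The count was 1 without the series term, 0 within the first series and 3 within the second. Neutrophil markers summed to medians of 510 CPM at 2 months and 1080 at 22 months, 5 of 5 tested being higher. Monocyte markers summed to medians of 70.4 and 135 and T cell markers to 8.18 and 23.5. Estimated depths had medians of 4.23 and 3.32 M reads. The part of these markers and of depth in the result was not tested.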

How the data were processed

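RNA was measured in 784 microglial cultures and in CD11b-sorted brain cells of 32 mice. The authors amplified RNA with T7, made 3′-end libraries, estimated reads per gene with Salmon 0.7.1 on Ensembl transcripts, removed shallow samples, and deposited values that are counts divided by all mapped reads, which is counts-per-million (CPM). Whole read counts could not be recovered, so no count test was run, and a multi-mapped or overlapping read may be split: 9 of the 50 genes overlap another on the same strand and 17 one on the opposite strand. Per the labels, the submitters list mouse build mm8, while promoter and overlap coordinates are from GRCm38.

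Genes over 5 CPM in at least 4 samples (11 mice for aging) were fitted as log2(CPM + 1) with limma 3.58.1 in R 4.3.3 (lmFit, contrasts.fit, eBayes with trend), with Well Type and plate as terms for cultures at each time, plate means for untreated 72 h against 24 h, and library series for aging. P-values were adjusted by the Benjamini-Hochberg method over all genes tested, two-sided, and called under 0.05 with no minimum fold. Wells of a group have no replicate number or culture of origin in the labels, so p-values measure the spread between wells, which share lots and plates. Estimated depth ran from 1 to 38.2 M reads in cultures, and at the shallow end a gene under a few CPM rests on few reads.

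The 50 genes, their roles and all pathway and marker lists were chosen with earlier results of these data known. Named in each comparison were Mki67, Top2a, Cdk1, Ccnb1, Rrm2, Mcm5, Pcna and Stmn1 and the called genes with the 4 largest rises and falls, and other named genes were chosen after their values were seen. Alternatives covered the pseudocount, the filter, covariates, position, a rank-sum test with Bonferroni correction and leaving out samples. The fit was tested on simulated data. A single well labelled LPS_hi at 72 h with the dose of LPS_lo was kept out of the comparisons. Figures and summaries used Python 3.11.15.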

Additional observations from a re-analysis of the deposited data

Results flagged for a closer look

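In 15 of 85 groups of 4 to 10 samples, a single sample lay far from the others in the mean log2(CPM + 1) of the 50 cell cycle genes, where chance gives about 5% of groups. All 15 were the lowest sample of their group, and 14 were edge wells. At 24 h the low wells stood at 3.15 under CCL7, 3.19 under CRH, 2.1 under GMCSF, 1.78 under IFNb, 1.79 under LPS_hi with estradiol, 1.95 under LPS_lo with CCL2, 2.38 under TNFa, 2.52 under eotaxin and 2.54 under substance P. The well at 3.09 under IFNg was the only middle well among them. At 72 h they stood at 3.54 under GMCSF, 1.21 under IL10, 1.95 under IL13, 1.72 under LiA and 1.96 under OA.

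The LPS_hi effect at 24 h differed between edge and middle wells for Ccnb2 (2.78 higher at the edge, adjusted p = 0.044 by limma), Mki67 (2.77, adjusted p = 0.040) and Plk1 (2.6, adjusted p = 0.049).

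Tk1 and Mcm4 moved in opposite directions under LPS in cultures at 24 h and in mice at 4 h. All 18 LPS_hi cultures lay below the untreated mean for both genes, and all 4 LPS mice lay above the PBS mean, by 0.906 for Tk1 and by 0.414 for Mcm4, which was not called in the mice. Nuf2, like Tk1, was called in both, lower in cultures (-3.02) and higher in mice (1.08). For Nuf2, 17 of 18 cultures lay below and all 4 LPS mice above. Tyms and Ube2c also had opposite signs and were not called in the mice. Dose, time and age differ between the experiments, and the difference itself was not tested.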

How the results depend on the processing

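No paired analysis was possible because the labels give no replicate numbers that groups share. Of 1619 recomputed folds of named genes, 1415 kept their side of the threshold, 130 were no longer called and 62 became called. Another 12 changed sign while called in the main or the alternative fit. A fold that changed sign but was called in neither fit is counted among the 1415. These 12 all changed sign in edge wells alone, an alternative added after seeing the data: Mki67 to 0.49 under LPS_hi, 1.19 under P3C, 0.054 under IFNa and 0.50 under resveratrol, Ccnb1 to 0.00094 under IC, 0.051 under IFNa and 0.053 under resveratrol, Mcm5 to 0.17 and Pcna to 0.19 under IFNa, Cdk1 to 1.29 under IFNb, Stmn1 to 0.14 under resveratrol and Rrm2 to 0.38 under LPS_hi at 4 h. Of 882 counts for single conditions, 645 stayed within 1.5 times.

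At 24 h the 808 calls became 61 in edge wells alone and 137 with a rank-sum test, and lay between 696 and 866 otherwise. At 72 h the 591 calls became 294 without covariates, 29 in edge wells alone and 22 with a rank-sum test, and lay between 527 and 725 otherwise, with 106 of the 527 higher under an edge term for each plate against 20 of 591. At 4 h the 193 calls became 99 in middle wells alone, 36 in edge wells alone and 27 with a rank-sum test. The rank-sum test had no plate or position term and used the stricter Bonferroni correction over all genes tested. At 72 h the smallest groups of wells could not pass it whatever their values. Its lower counts therefore mix the change of test with that of correction. The 14 calls for an agent added to LPS became 4 without covariates, 9 with library pool in place of plate and 8 in edge wells alone. For untreated 72 h against 24 h, the 6 calls became 0 with no filter (added after seeing the data), 0 with cell lot as a term, 0 in middle wells alone, 29 with plate as a random block and 42 with plate ignored, and 0 to 44 with 1 plate left out. The edge comparison gave 32 calls and 37 on the 24 h plates, and could not be fitted on the 72 h plates, where plate and position coincide. In the LPS mice the 6 calls became 1 with a log2 fold of at least 1, and 3 to 7 with 1 mouse left out. With age the 9 calls became 1 without the series term, 0 and 3 within the first and second library series, and 0 with a log2 fold of at least 1. The causes were not tested. Fewer wells enter the fits by position.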
